A study of Ovis aries with 32 samples.

Results

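Chemokines that draw monocytes and lymphocytes were followed in sheep middle cerebral arteries (MCA) exposed to phenylephrine (PHE), a selective agonist of the alpha-1 adrenergic receptor (Alpha1AR). The genes were CCL2, CCL4L1, CCL5, CXCL10 and CXCL16, each read by 1 probe, so that 5 of the 15008 probes on the array and 5 of the 2397 gene symbols that could be given are described. The probe of CXCL10 carried a sheep reference accession for that gene, and the other 4 were named by matching printed group means of the study's list of genes altered with PHE to the arrays. CCL2, CCL4L1 and CXCL16 each matched a single probe at 3 of 3 ages, and CCL5 at 1 of 1. CXCL10, also listed at 1 age, matched a single probe at 0 of 1, so that its name rests on the accession. Because that list holds only genes altered with PHE, and all 5 genes stood in its premature fetus section and CCL2, CCL4L1 and CXCL16 also in its near-term fetus and newborn lamb sections, how many of them were called with PHE at those ages is given as a description and nothing is read from it. None of the 5 stood in its adult sheep section.

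MCA segments of non-pregnant adult sheep, of newborn lambs and of fetuses taken near term or prematurely were studied either without treatment or after 30 minutes with PHE at 10 µM in a tissue bath. Each of the 8 groups was read on 4 one-colour arrays, 32 in all. The sample labels give 96 days of gestation for the premature fetus, 146 days for the near-term fetus, 12 hours for the newborn lamb and 2 years for the adult sheep, while the methods give 96 days, 140 days, 5 days and 18 to 24 months. The methods count 4 animals for an experiment and a single fetus from any twin pair, with segments cut from each animal, but do not state whether an untreated and a PHE-treated segment with the same number came from the same animal, or how long untreated segments were kept. The segments were whole vessel wall cleaned of fat and connective tissue, so that fewer cells of a type and less RNA per cell cannot be told apart.

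Chemokines are small secreted proteins that bind G protein-coupled receptors on leukocytes and direct them into tissue. CC and CXC types differ in the spacing of their first cysteines, and many are transcribed in response to NF-kB and interferon signalling. Smooth muscle, endothelium and resident macrophages of an artery are all known to make several of them.

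Intensities are given as log2 values relative to the 75th percentile of each array, so that 0 is that percentile and a step of 1 is a doubling. Over the 32 arrays that percentile ran from 125.5 to 1729.9 in intensity, with a median of 839.2, and 59.3% to 95.7% of probes were well above background. In the near-term fetus, untreated replicate 4 had the lowest 75th percentile of all arrays at 125.5, PHE replicate 1 stood at 373.3, and untreated replicate 3 stood at 397.3 with the fewest probes well above background (59.3%) and the most outlier spots (53) of all arrays. With 4 arrays a group, every value below is of limited precision. A difference was called at a fold of 1.5 or more with a p under 0.05 in limma after Benjamini-Hochberg adjustment over all probes tested. To be tested, a probe needed a group, among those compared, whose 4 arrays all read well above background.

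CCL2, the main attractant of monocytes through the receptor CCR2, was well above background on every untreated fetal and newborn array. In the premature fetus, replicates 1 to 4 read -1.97, -2.12, -1.80 and -1.18 untreated and 3.62, 4.34, 3.75 and 3.99 with PHE. The near-term fetus arrays read -1.72, -2.86, -2.48 and -1.20 untreated and 0.39, 0.86, 1.32 and 1.47 with PHE. In both fetal groups every PHE-treated array stood above every untreated array, and the near-term values with PHE all lay below those of the premature fetus, scanned on another day. Those of the newborn lamb read -2.02, -2.03, -1.22 and -1.55 untreated and 2.78, 3.82, 3.87 and 3.52 with PHE. The adult sheep arrays read -5.14, -4.99, -3.46 and -6.28 untreated, with 3 of 4 well above background, and -1.83, -4.90, -0.87 and 1.67 with PHE. The newborn groups did not overlap, whereas in the adult sheep PHE replicate 2 lay within the untreated range and the other 3 PHE-treated arrays lay above it.

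CCL2 was 51.7-fold higher with PHE in the premature fetus (5.69 ± 0.23 on the log2 scale, SE, limma adjusted p = 2.3e-07, higher on 4 of 4 arrays). It was 8.43-fold higher in the near-term fetus (3.08 ± 0.42, limma adjusted p = 0.00626, 4 of 4 arrays) and 36.8-fold higher in the newborn lamb (5.20 ± 0.27, limma adjusted p = 4.48e-06, 4 of 4 arrays). In the adult sheep the difference of 3.49 ± 1.21, or 11.2-fold, did not pass (limma adjusted p = 0.235, 3 of 4 arrays above every untreated array). Without adult PHE replicate 2 it was 4.62 and passed (limma adjusted p = 0.0251, within a range of 0.00383 to 0.493 over the alternatives). That array was singled out after its values were seen. The 4 near-term PHE-treated arrays shared a slide with only 1 untreated array, the dim replicate 4. Against that array the near-term difference of CCL2 was 2.21, which is also its value with slide as a block (limma adjusted p = 0.264, range over the alternatives 0.000462 to 0.264).

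CCL4L1, a copy of the CCL4 gene whose product attracts monocytes and T cells, had the largest difference of the 5 genes in the premature fetus. There it read -5.16, -4.87, -4.54 and -5.18 untreated, with 2 of 4 arrays well above background, and 3.53, 3.81, 3.56 and 2.92 with PHE. The near-term fetus read -6.24, -4.08, -4.62 and -4.72 untreated, with 1 of 4 well above background, and 1.72, -0.80, 2.08 and 0.36 with PHE. The groups stood clear of each other at both fetal ages, by a wider margin in the premature fetus. Newborn lamb values were -4.46, -4.20, -2.46 and -5.15 untreated, with 3 of 4 well above background, and 1.26, 1.95, 2.78 and 1.22 with PHE. Adult sheep values were -7.77, -7.10, -6.39 and -8.24 untreated, with 1 of 4 well above background, and -1.38, -6.22, -2.73 and -0.55 with PHE, with 3 of 4. All 4 adult PHE-treated arrays lay above every untreated array, replicate 2 by the least.

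In the premature fetus CCL4L1 was 336-fold higher with PHE (8.39 ± 0.21, limma adjusted p = 2.07e-08, 4 of 4 arrays), or 302-fold where an untreated value not well above background was replaced by the smallest signal of its array that was. The corresponding values were 54.0-fold and 24.9-fold in the near-term fetus (5.76 ± 0.69, limma adjusted p = 0.00308, 4 of 4 arrays). They were 58.6-fold and 51.7-fold in the newborn lamb (5.87 ± 0.56, limma adjusted p = 0.00013, 4 of 4 arrays). With slide as a block the near-term difference was 5.56 and did not pass (limma adjusted p = 0.153, range over the alternatives 6.69e-06 to 0.153). Adult signals were below the filter and no test was made, at a difference of 4.66, or 9.89-fold with dim values replaced, and 4.72 within the slide that held all 4 PHE-treated and 2 untreated arrays. Without adult PHE replicate 2 the filter let it in, with a difference of 5.82 (limma adjusted p = 0.00104). It then entered only through the PHE-treated arrays, where it was high. The array left out was singled out after its values were seen, so that nothing is read from this call.

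CCL5, which draws T cells and monocytes, was near background on many arrays. In the premature fetus it read -6.37, -6.10, -6.06 and -5.91 untreated, well above background on 0 of 4 arrays, and -4.06, -2.49, -4.13 and -3.29 with PHE, well above it on 4 of 4. The PHE-treated arrays all stood above the untreated arrays, at least 3.13-fold on average with the untreated values replaced as for CCL4L1, which makes the fold a lower bound (limma adjusted p = 0.000261, 4 of 4 arrays). With normexp background correction the difference was 0.03 (limma adjusted p = 0.973, range over the alternatives 0.000145 to 0.973). Near-term fetus arrays read -5.12, -3.47, -3.76 and -1.36 untreated and -4.03, -7.36, -5.72 and -2.57 with PHE. The newborn values lay between -6.53 and -2.94 untreated and between -6.70 and -2.97 with PHE. Those of the adult sheep lay between -7.82 and -5.63 and between -7.48 and -4.18. The groups overlapped at these 3 ages and the probe was not tested there, with 3, 1 and 1 untreated and 3, 2 and 2 PHE-treated arrays well above background.

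CXCL10, the interferon-induced attractant of activated T cells and natural killer cells through CXCR3, had groups that stood apart in the premature fetus and overlapped at the other ages. It read -5.32, -3.45, -4.23 and -2.94 untreated in the premature fetus, with 3 of 4 well above background, and -0.81, 0.61, -0.15 and 0.55 with PHE. Newborn lamb arrays read -2.86, -2.05, -0.86 and -1.40 untreated and -2.78, -3.27, -2.50 and -1.94 with PHE. The premature groups did not overlap, and in the newborn lamb 2 untreated arrays stood above every PHE-treated array. Near-term fetus values were -6.45, -2.87, -3.77 and -1.54 untreated and -5.41, -3.79, -5.74 and -1.76 with PHE, with 3 of 4 well above background in each group. Adult sheep arrays read -7.38, -7.23, -4.96 and -7.18 untreated, with 1 of 4 well above background, and -5.66, -6.84, -5.96 and -7.17 with PHE, with 0 of 4. At these ages the groups overlapped over most of their range.

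CXCL10 was 16.4-fold higher with PHE in the premature fetus (4.03 ± 0.51, limma adjusted p = 0.000252, 4 of 4 arrays), or 15.5-fold with the dim untreated value replaced. Its newborn lamb difference was -0.83 ± 0.43 and did not pass (limma adjusted p = 0.175). It passed where untreated replicate 1 was left out, at -1.19 (limma adjusted p = 0.0472, range over the alternatives 0.0472 to 0.625). The probe was not tested in the near-term fetus and adult sheep.

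CXCL16, made as a membrane-bound protein that binds CXCR6 on T cells and is also a scavenger receptor, was well above background on 31 of 32 arrays. It read -2.56, -1.85, -2.44 and -2.37 untreated in the premature fetus and 0.15, 1.39, 0.52 and 0.56 with PHE. The near-term fetus arrays read -3.31, -2.34, -3.32 and -3.52 untreated, with 3 of 4 well above background, and -1.28, -2.49, -1.52 and -0.92 with PHE. The premature groups did not overlap, and near-term PHE replicate 2 lay below the highest untreated array. For the newborn lamb the values were -1.22, -1.37, -1.56 and -2.36 untreated and -0.05, -0.04, 0.62 and 0.16 with PHE. For the adult sheep they were -1.57, -1.89, -1.46 and -1.78 untreated and -1.30, -1.55, -1.43 and -0.97 with PHE. The newborn groups were separate and the adult groups were close, with 3 of 4 PHE-treated arrays above every untreated array.

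CXCL16 was 7.76-fold higher with PHE in the premature fetus (2.96 ± 0.26, limma adjusted p = 3.31e-05, 4 of 4 arrays) and 3.49-fold higher in the newborn lamb (1.80 ± 0.26, limma adjusted p = 0.00125, 4 of 4 arrays). The near-term difference of 1.57 ± 0.41 did not pass (limma adjusted p = 0.0706, 3 of 4 arrays), and with normexp background correction it was -0.17. It passed with the fit to all 32 arrays (limma adjusted p = 0.000258), with array weights (1.46, limma adjusted p = 0.0121) and without untreated replicate 2 (limma adjusted p = 0.045, range over the alternatives 0.000258 to 0.792). The adult difference of 0.37 ± 0.18 did not pass either (limma adjusted p = 0.413, 3 of 4 arrays).

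**Figure D1:**
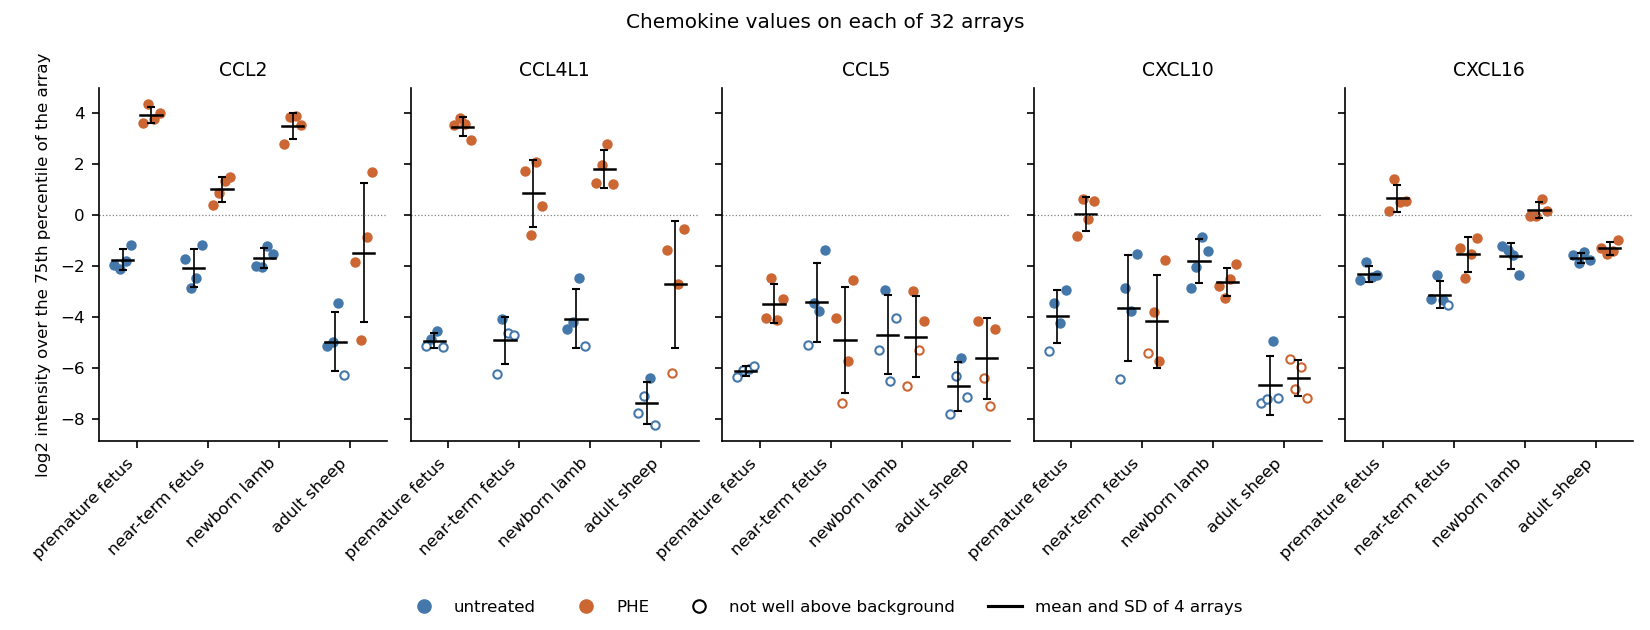
Values of CCL2, CCL4L1, CCL5, CXCL10 and CXCL16 on each of 32 arrays, as log2 intensity over the 75th percentile of the array (vertical axis), for untreated (blue) and PHE-treated (orange) arteries at 4 ages. Open points were not well above background, and bars give the mean and SD of 4 arrays; the PHE-treated premature fetus arrays stood above the untreated ones for all 5 genes, and the adult CCL2 values with PHE ran from -4.90 to 1.67.

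Counted over the genes, 5 of 5 tested were called higher with PHE in the premature fetus, where 30.3% of all probes tested were called and 15.5% were called higher and 14.8% lower. The counts were 2 of 3 tested in the near-term fetus (3.34% of probes called, 2.95% higher and 0.383% lower) and 3 of 4 in the newborn lamb (19.9% called, 10.5% higher and 9.41% lower). The near-term share rests on 331 probes, a number that ran from 91 without untreated replicate 1 to 1483 without PHE replicate 1 and 4107 with array weights. The naming used those contrasts, so that these counts describe the genes and show nothing more. For the adult sheep limma called 0 of 2 tested, against 2.01% of all probes (1.72% higher and 0.292% lower). There 1 of the 2 passed at an unadjusted p under 0.05, and the methods' t-test called 0 before and 0 after adjustment. The adult share rests on 193 probes, a number that also moved widely with an array left out, as given under the processing. The medians of the genes tested were 4.03, 3.08, 3.50 and 1.93 in the premature fetus, near-term fetus, newborn lamb and adult sheep, and those of all probes tested were -0.08, -0.08, -0.08 and -0.04. Passing the filter only through PHE-treated arrays favours a higher value with PHE. This was the case for CCL4L1 at 3 ages, for CCL5 and CXCL10 in the premature fetus, for CXCL16 in the near-term fetus and for CCL2 in the adult sheep.

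**Figure D2:**
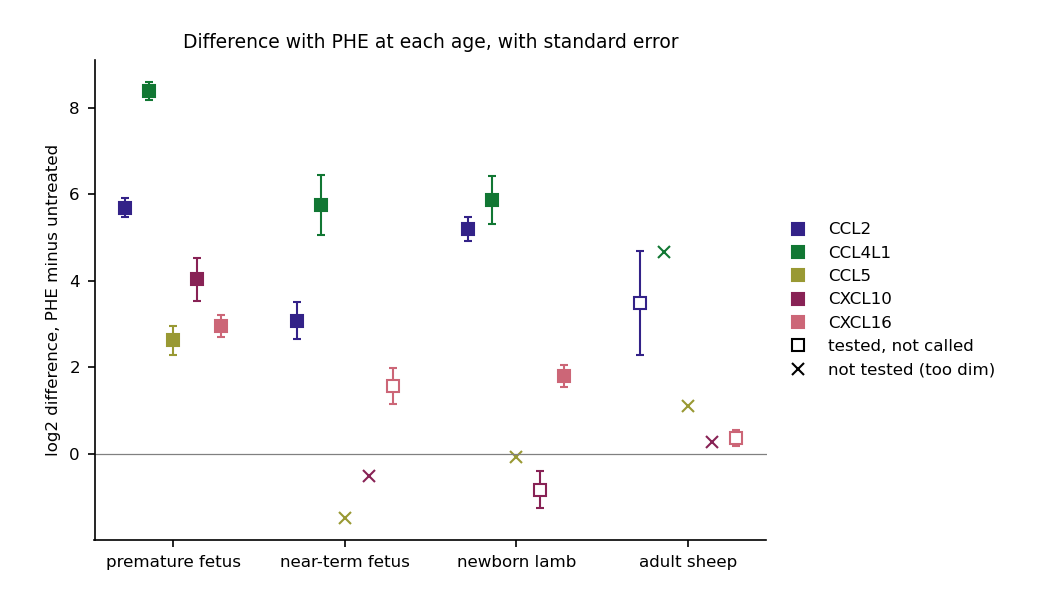
Log2 difference between PHE-treated and untreated arteries (vertical axis) for the 5 genes at 4 ages (horizontal axis), with the standard error from limma. Filled squares were called, open squares were tested and not called, and crosses were too dim to be tested; CCL4L1 had a difference of 8.39 in the premature fetus and CXCL10 of -0.83 in the newborn lamb.

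How far the response to PHE differed with age was put as the difference of PHE effects between ages. The premature fetus effect, for which all 5 genes were listed, and for CCL5 and CXCL10 the only one, enters each difference against that age. A lower effect at the other age was thus favoured by the choice of genes, and those differences are no independent support for it. The 6 pairs of ages share arrays. For 4 of the 6 pairs, those that set a near-term fetus or adult sheep group against a premature fetus or newborn lamb group, the scan day differed as well and cannot be told apart from age. The newborn lamb and the premature fetus were scanned together, each age on a slide of its own that held both of its groups. There 1 of 5 genes was called, and 0.89% of all probes (0.736% with a lower and 0.155% with a higher effect in the newborn lamb). CXCL10 was the gene called, with a lower effect in the newborn lamb (-4.86 ± 0.72 log2 units, a 29.1-fold ratio of folds, limma adjusted p = 0.00662). Among premature fetus arrays 4 of 4 with PHE lay above every untreated array, and among newborn lamb arrays 0 of 4 did. The call was lost with normexp background correction, at -2.78 (limma adjusted p = 0.338), and with a single spread fitted to all 32 arrays (limma adjusted p = 0.234), within a range of 0.00123 to 0.338.

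For CCL4L1 and CCL5 the same difference was -2.52 ± 0.65 (limma adjusted p = 0.0855) and -2.69 ± 1.06 (limma adjusted p = 0.249). Both were called with the replicate number as a block (limma adjusted p = 0.00534 and 0.0318), and the numbers paired the arrays at these ages. CCL5 entered only through its premature fetus PHE-treated arrays, and with dim values replaced its difference was -1.62. With normexp background correction the CCL5 difference was 0.27. CXCL16 differed by -1.16 ± 0.39 (limma adjusted p = 0.181) and CCL2 by -0.49 ± 0.38 (limma adjusted p = 0.601). CCL2 was thus called higher with PHE at both ages, and its effects there were 5.69 and 5.20.

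Between the near-term fetus and the premature fetus 1 of 5 genes was called, against 1.35% of all probes (0.579% with a lower and 0.766% with a higher effect in the near-term fetus). The CCL2 effect was lower in the near-term fetus (-2.62 ± 0.50, a 6.13-fold ratio, limma adjusted p = 0.0251, range over the alternatives 0.00562 to 0.145). It kept the call in 11 of 16 fits with an array left out, and the 5 losses each followed from leaving out a premature fetus array. With the fit to all 32 arrays CCL2 was not called (limma adjusted p = 0.145) and CXCL10 was (limma adjusted p = 0.0241), and with no filter CCL2 was not called (limma adjusted p = 0.0576). With near-term untreated replicate 4 and PHE replicate 1 left out together, an alternative chosen after seeing the data, CCL2 stood at -2.12 (limma adjusted p = 0.0136) and CCL4L1 was also called, at -2.87 (limma adjusted p = 0.0461). With slide as a block the CCL2 difference was -3.48 (limma adjusted p = 0.00562). CCL4L1 at -2.64, CCL5 at -4.11, CXCL10 at -4.55 and CXCL16 at -1.39 did not pass (limma adjusted p = 0.118, 0.123, 0.123 and 0.201). With slide as a block CCL5 and CXCL10 passed (-6.18 and -6.67, limma adjusted p = 0.0425 and 0.033), where the near-term effect rests on 1 untreated array. Both entered only through the premature fetus PHE-treated arrays, where they were high, and with dim values replaced the CCL5 difference was -3.00 in place of -4.11. The same replacement gave -3.60 for CCL4L1. CXCL10 passed with the replicate number as a block too (limma adjusted p = 0.0184). CCL5 and CXCL10 also passed with quantile normalization (limma adjusted p = 0.0244 and 0.0418) and scaling to the median (limma adjusted p = 0.0357 and 0.0343). The same held with array weights (limma adjusted p = 0.00852 and 0.0336) and without near-term PHE replicate 4 (limma adjusted p = 0.0321 and 0.0375). All 5 passed at an unadjusted p under 0.05.

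Between the newborn lamb and the near-term fetus 1 of 4 genes tested was called, against 3.11% of all probes (0.756% with a higher and 2.35% with a lower effect in the newborn lamb). That balance turned with normexp background correction, which called 1420 probes, 1186 with a higher and 234 with a lower effect. The CCL2 effect was higher in the newborn lamb (2.12 ± 0.53, a 4.36-fold ratio, limma adjusted p = 0.0424, range over the alternatives 0.0158 to 0.197). It kept the call in 5 of 16 fits with an array left out, and lost it with quantile normalization (limma adjusted p = 0.0996). For CCL4L1, CXCL10 and CXCL16 the differences were 0.12 ± 0.97, -0.31 ± 1.34 and 0.23 ± 0.50. Over the alternatives they ran from -0.73 to 2.13, from -1.43 to 1.81 and from -0.25 to 1.69. CXCL16 was called with normexp background correction (limma adjusted p = 0.0426).

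Between the adult sheep and the premature fetus 2 of 5 genes were called, against 4.28% of all probes (2.46% with a lower and 1.83% with a higher effect in the adult sheep). The CXCL16 effect was lower in the adult sheep (-2.59 ± 0.33, a 6.03-fold ratio, limma adjusted p = 0.00142), and was called in 16 of 16 fits with an array left out. Its call was lost with normexp background correction (limma adjusted p = 0.054, range over the alternatives 0.000385 to 0.054). The CXCL10 effect was lower as well (-3.76 ± 0.84, limma adjusted p = 0.0212), with 1 untreated and 0 PHE-treated adult arrays well above background. It entered only through the premature fetus PHE-treated arrays, so that the difference mainly restates the premature fetus effect. With slide as a block it was -3.14 (limma adjusted p = 0.0759), and without premature fetus PHE replicate 2 it was -3.18 (limma adjusted p = 0.0534, range over the alternatives 0.00564 to 0.171). CCL4L1 at -3.74 ± 1.21 did not pass (limma adjusted p = 0.0978) and passed without adult PHE replicate 2, at -2.57 (limma adjusted p = 0.0442), and without adult PHE replicate 4 (limma adjusted p = 0.0358). It also passed with quantile normalization, a floor of 0.01 and array weights (limma adjusted p = 0.0114, 0.0354 and 0.0287, range over the alternatives 0.0114 to 0.18). Like CXCL10 it entered only through the premature fetus PHE-treated arrays, where it was high, and with dim values replaced its difference was -4.73.

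In the remaining pairs no gene was called. Between the adult sheep and the near-term fetus limma called 0 of 3 tested, and 0% of all probes. With quantile normalization it called 98 probes, 10 higher and 88 lower, and 0 of the chemokines. There CXCL16 alone passed at an unadjusted p under 0.05, with a difference of -1.20 ± 0.46 (limma adjusted p = 0.223), which turned to 0.53 with normexp background correction (limma adjusted p = 0.435, range over the alternatives 0.0521 to 0.513). Between the adult sheep and the newborn lamb it called 0 of 4, against 0.183% of all probes (0.106% lower and 0.0769% higher in the adult sheep). CXCL16 again alone passed at an unadjusted p under 0.05, with a difference of -1.44 ± 0.33 (limma adjusted p = 0.102), and passed the adjusted threshold with quantile normalization (limma adjusted p = 0.0259, range over the alternatives 0.0259 to 0.28). The CCL2 difference in these pairs was 0.41 ± 1.40 and -1.71 ± 1.37, errors that leave room for a large difference in either direction.

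**Figure D3:**
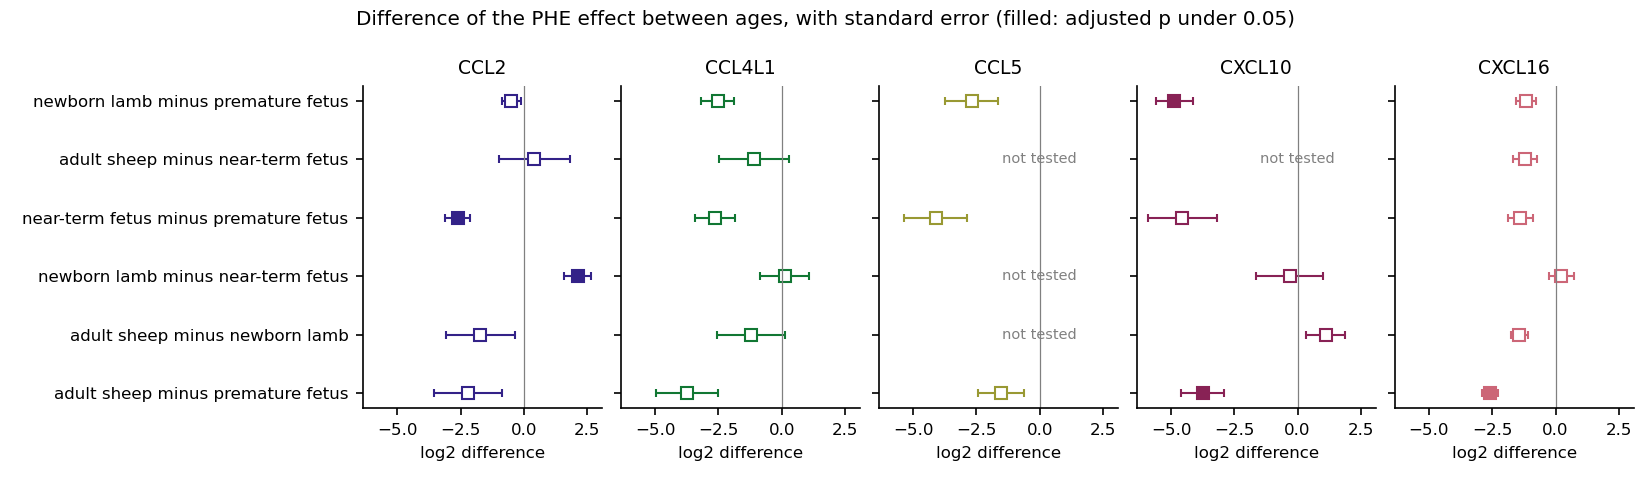
Difference of the PHE effect between ages (horizontal axis, log2 units, with the standard error from limma) for each of 5 genes and 6 pairs of ages (vertical axis). Filled squares were called, and pairs with no square were too dim to be tested; CXCL10 stood at -4.86 for newborn lamb minus premature fetus, and the CCL2 squares of the near-term pairs at -2.62 and 2.12.

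Untreated arteries were compared between ages as well. The naming did not use these comparisons, although the untreated arrays are part of the PHE contrasts that it used. Between the newborn lamb and the premature fetus 1 of 3 genes tested was called, against 23% of all probes (12.5% higher and 10.6% lower in the newborn lamb). Untreated CXCL10 was 4.56-fold higher in the newborn lamb (2.19 ± 0.55, limma adjusted p = 0.0154), and all 4 newborn values exceeded those of the premature fetus, whose highest was -2.94. It passed the filter only through the newborn lamb arrays, where it was high. The call was lost with normexp background correction, at 0.84 (limma adjusted p = 0.43, range over the alternatives 0.00962 to 0.43). CXCL16 differed by 0.68 ± 0.26 (limma adjusted p = 0.0706) and CCL2 by 0.06 ± 0.25 (limma adjusted p = 0.861). Each age lay on a slide of its own, so that slide and age cannot be told apart here.

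Between the adult sheep and the near-term fetus 2 of 2 genes tested were called, against 28.2% of all probes (12.3% higher and 15.9% lower in the adult sheep). Untreated CCL2 was 7.47-fold lower in the adult sheep (difference -2.90 ± 0.59, limma adjusted p = 0.00811, 4 of 4 adult arrays below every near-term array). It was -2.70 with slide as a block (limma adjusted p = 0.0309) and was called under each of the 19 alternatives that tested it, with adjusted p between 0.00156 and 0.0475. The stricter filter left it out, since it was well above background on 3 of 4 adult arrays. It entered only through the near-term arrays, where it was high. The summed monocyte and macrophage markers described below were also lower, at 0.674 to 1.33 on untreated adult and 4.28 to 6.85 on untreated near-term arrays. Their part in the CCL2 difference was not tested. Untreated CXCL16 was 2.73-fold higher in the adult sheep (1.45 ± 0.29, limma adjusted p = 0.0075, 4 of 4 arrays above), and 1.34 with slide as a block (limma adjusted p = 0.0286). It entered only through the adult arrays, where it was high. Its direction turned with normexp background correction, at -0.28 (limma adjusted p = 0.507, range over the alternatives 0.000347 to 0.507). Its call was also lost with quantile normalization (limma adjusted p = 0.0639). Scaling to the median moved the median of all probes from -0.01 to 0.51, with 1774 probes called higher and 787 lower. CCL4L1, CCL5 and CXCL10 were too dim in these untreated groups to be tested.

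In the order of group means, CCL2 ran from premature fetus with PHE (3.92 ± 0.31, SD, n = 4) through newborn lamb with PHE (3.50 ± 0.50), near-term fetus with PHE (1.01 ± 0.49) and adult sheep with PHE (-1.48 ± 2.71). It went on to newborn lamb (-1.70 ± 0.39), premature fetus (-1.77 ± 0.41), near-term fetus (-2.07 ± 0.75) and adult sheep (-4.97 ± 1.16), all untreated. Only 2 neighbouring steps were free of overlapping arrays, those from newborn lamb to near-term fetus with PHE and from untreated near-term fetus to untreated adult sheep. CCL4L1 followed a similar order, led by the premature fetus (3.46 ± 0.38), newborn lamb (1.81 ± 0.73), near-term fetus (0.84 ± 1.32) and adult sheep (-2.72 ± 2.50) with PHE. The untreated newborn lamb (-4.07 ± 1.14), near-term fetus (-4.91 ± 0.93) and premature fetus (-4.94 ± 0.30) came next without differing beyond their spread, and the untreated adult sheep last (-7.38 ± 0.80). The step from premature fetus to newborn lamb with PHE and the last step were free of overlap.

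CXCL16 was highest in the premature fetus (0.65 ± 0.52) and newborn lamb (0.17 ± 0.31) with PHE, which overlapped, followed after a gap by the adult sheep (-1.31 ± 0.25) and near-term fetus (-1.55 ± 0.67) with PHE. The scan day changed at that gap as well. The untreated newborn lamb (-1.63 ± 0.51) and adult sheep (-1.68 ± 0.19) came next, each within the spread of the group before it. The untreated premature fetus (-2.31 ± 0.31) and near-term fetus (-3.12 ± 0.53) stood lowest, each step larger than the SD but with overlapping arrays. Groups with few arrays well above background, such as CXCL10 in the adult sheep and CCL5 in the untreated premature fetus, have no exact place in these orders. CXCL10 was led by the premature fetus with PHE (0.05 ± 0.67), clear of the untreated newborn lamb (-1.79 ± 0.86) and the newborn lamb with PHE (-2.62 ± 0.56). The untreated near-term fetus (-3.66 ± 2.08) and premature fetus (-3.98 ± 1.03) and the near-term fetus with PHE (-4.17 ± 1.82) overlapped, and the adult sheep stood lowest, near background, with PHE (-6.41 ± 0.71) and untreated (-6.69 ± 1.16), or at -5.40 and -5.67 with dim values replaced. For CCL5 every neighbouring step was smaller than the SD, from the untreated near-term fetus (-3.43 ± 1.56) and the premature fetus with PHE (-3.49 ± 0.77) down to the untreated adult sheep (-6.73 ± 0.96). Between them came the newborn lamb untreated (-4.71 ± 1.55) and with PHE (-4.78 ± 1.59), the near-term fetus with PHE (-4.92 ± 2.08), the adult sheep with PHE (-5.63 ± 1.58) and the untreated premature fetus (-6.11 ± 0.19), whose 4 arrays were all dim, and with dim values replaced this order changed.

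The low CCL2 and CCL4L1 values of adult PHE replicate 2 were shared by other genes. Of 165 probes called higher with PHE in the adult sheep, 109 (66.1%) had the lowest of their 4 PHE-treated values on replicate 2, against 10, 12 and 34 on replicates 1, 3 and 4. The called genes of the list of inducers and NF-kB pathway genes were among them. IL6, a cytokine made early in inflammation, read 1.64, -1.78, 1.24 and 2.90 on replicates 1 to 4, and IRF1, a transcription factor of the interferon response, read 2.57, -1.50, 1.12 and 0.71. NFKBIZ, a nuclear member of the inhibitor of NF-kB family, read -1.71, -2.95, -2.14 and -1.39. Replicate 2 was thus the lowest of the 4 for CCL2, CCL4L1 and these 3 genes alike, an array singled out after its values were seen, and what set it apart was not tested.

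**Figure D4:**
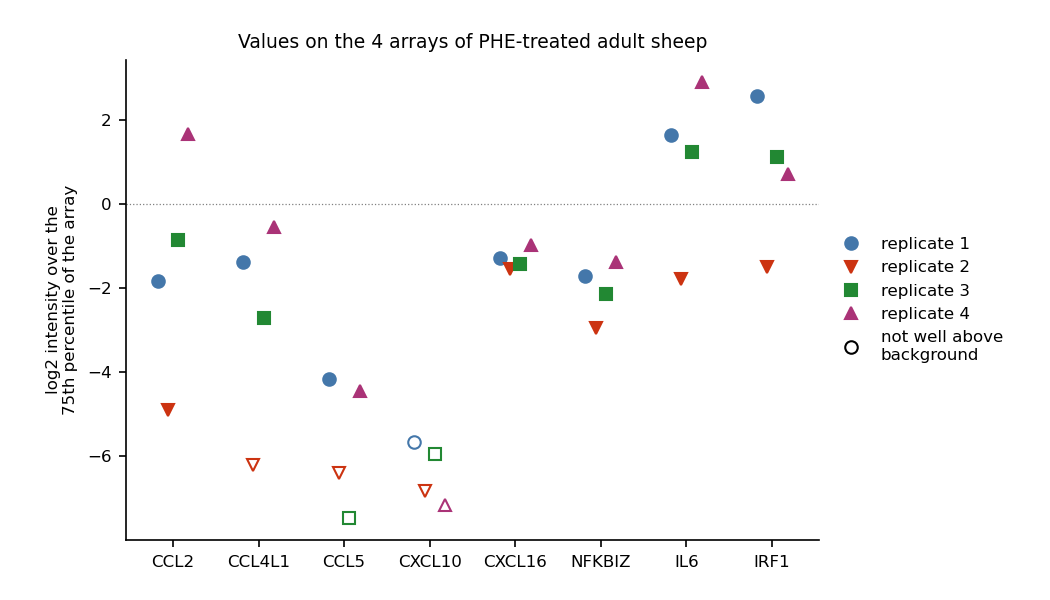
Values on the 4 arrays of PHE-treated adult sheep, as log2 intensity over the 75th percentile of the array (vertical axis), for the 5 chemokines and the 3 called genes of the inducer list. Each symbol is a replicate, and open symbols were not well above background; replicate 2 was the lowest for CCL2 (-4.90), CCL4L1 (-6.22), CXCL16 (-1.55), NFKBIZ (-2.95), IL6 (-1.78) and IRF1 (-1.50).

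Among the 5 genes, CCL2 and CCL4L1 moved most alike, with Pearson's r = 0.945 over the 32 arrays and 0.654 over deviations from the 8 group means. The lowest values over the 32 arrays were those of CCL5 with CXCL16 (r = 0.209) and with CCL4L1 (r = 0.411). These are descriptions of the same 32 arrays, to which the PHE effect and the ages contribute. Over 2486 probes with a symbol, CCL2 was most like PLEK (r = 0.965), IRF8 (0.954), CCL4L1, CXCL8 (0.942) and PLAUR (0.941). CCL4L1 was most like CXCL8 (0.976), PLEK (0.957), CD83 (0.955) and IL1B (0.952). CXCL16 was most like EIF5 (0.913), SLC11A2 (0.898), BIRC3 (0.893), ETF1 (0.887) and IL6ST (0.869). CXCL10 had PSPH (0.867), GNPNAT1 (0.861), C4orf31 (0.86), PLSCR1 (0.856) and NRF-2 (0.852), and CCL5 had SAMSN1 (0.758), TNFRSF18 (0.749), PIK3AP1 (0.738), NCF1 (0.73) and MMP12 (0.728).

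Within groups, over deviations from the group means, the closest gene to CCL2 was SELP (r = 0.836), then IRF8 (0.8), PLAUR (0.791) and APOA1 (0.755). Among the closest to CCL4L1 were PLEK (0.834), PLAUR (0.808), CXCL8 (0.806) and ITGB2 (0.803). CCL5 had XCL1 (0.789), a chemokine of T cells, then MADCAM1 (0.748), TNFRSF18 (0.748) and TNNI1 (0.74), and CXCL16 had TLR4 (0.746), ITGB2 (0.713), CD53 (0.711), PIK3AP1 (0.698) and FCGR1A (0.667). Among the closest to CXCL10 were DNAJB2 (0.838), FGF10 (0.837), EPAS1 (0.821) and RIOK3 (0.811). CCL5 and CXCL10 were near background on many arrays and spread most in near-term groups, whose arrays differed most in brightness. Near-term untreated replicate 4, the dimmest array, gave the highest value of its group for both (-1.36 and -1.54). The part of array brightness in these correlations was not tested. Most probes with a symbol were named through the list of genes altered with PHE, so that the genes open to this comparison were not drawn evenly from the array.

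Of a list of 40 other chemokines, 6 genes were named on the array. For this and the lists below, the shares of all probes tested that were called higher were 15.5%, 2.95%, 10.5% and 1.72%. Those called lower were 14.8%, 0.383%, 9.41% and 0.292%, each in the order premature fetus, near-term fetus, newborn lamb and adult sheep. In the premature fetus 5 of 8 probes tested were called higher and none lower, with a median of 2.95. The genes were CXCL8 (8.80), CXCL5 (5.72) and CXCL1 (2.99), which draw neutrophils through CXCR1 or CXCR2. The newborn lamb also had 5 of 9 probes called higher (median 1.96), again of CXCL8 (8.68), CXCL5 (5.34) and CXCL1 (2.05). Near-term fetus arrays had 2 of 7 called, both of CXCL8 (7.21 and 6.96, or 91.9-fold and 112-fold with dim values replaced), with a median of -0.11. For the adult sheep limma called 0 of 6, with CXCL8 differing by 5.77 (adjusted p = 0.084).

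Of 29 receptors for chemokines 6 genes were named. The decoy-like receptor CCRL2 was lower with PHE in the premature fetus (-1.43, limma adjusted p = 0.000195), and CXCR7, a scavenger of chemokines, was higher (0.88, limma adjusted p = 0.00386). CXCR4 was higher in the newborn lamb (1.84, limma adjusted p = 0.0282). CCRL2, CXCR7 and CXCR4 had all been named through the list of genes altered with PHE, so that their calls are not independent of that choice. The near-term fetus had 0 of 6 probes called and the adult sheep 0 of 5 by limma. The receptors CCR2, CXCR3 and CXCR6 carried no name here, nor did the genes of the list of Alpha1AR subtypes (0 of 3) or of CXCL16 shedding (0 of 3).

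The list of inducers and NF-kB pathway genes, which holds known inducers of CCL2, CCL5 and CXCL10, had 20 of 28 genes named. In the premature fetus 21 of 23 probes tested were called higher and none lower, against 15.5% and 14.8% of all probes tested, with a median of 3.06. Among them were IL6, at least 1127-fold higher, IL1A, at least 95.4-fold higher, IL1B (8.82) and TNF (6.82, or 72.7-fold with dim values replaced). Among newborn lamb arrays 19 of 21 were called higher (median 2.88), against 10.5% of all probes. IL6 was at least 363-fold, IL1A at least 12.4-fold and TNF at least 17.9-fold higher there, and IL1B stood at 7.70. The near-term fetus had 8 of 23 called higher (median 1.87), against 2.95% of all probes, among them IL6 (7.36), IRF1 (4.60), TNF (4.19) and NFKBIZ (4.07). With dim values replaced the near-term folds were 85.6 for IL6, 18.0 for TNF and 12.8 for NFKBIZ. The adult sheep had 3 of 18 called higher (median 0.76), against 1.72% of all probes. These were IL6, at least 140-fold higher, IRF1 (4.94) and NFKBIZ (3.33). Up to 13 of the probes tested at an age had been named through the list of genes altered with PHE, so that these counts are not independent of that choice.

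Genes of the interferon response, which CXCL10 belongs to, had smaller differences. Of 31 genes 8 were named, and 5 of 10 probes were called higher in the premature fetus, of IRF8 (at least 11.6-fold on its dimmer probe, 3.30 on the other), IRF9 (1.46), STAT2 (1.40) and GBP2 (1.04). The newborn lamb likewise had 5 of 10 called higher, of the same 4 genes, with IRF8 at 3.32 on its brighter probe, STAT2 at 0.94, GBP2 at 0.73 and IRF9 at 0.66. These stood beside a CXCL10 difference of 4.03 in the premature fetus and of -0.83 in the newborn lamb. All 5 probes called at each of these ages had been named through the list of genes altered with PHE. Those of MX1, MX2, ISG15 and B2M were named by accession or file name, and none was called. The counts and their repeat between ages are thus not independent of the naming, and nothing is read from them. The near-term fetus had 1 of 10 called, of IRF8 (2.75, or 2.90-fold with dim values replaced), and in the adult sheep 0 of 8 by limma. The medians were 0.76, 0.46, 0.43 and 0.53 in the premature fetus, near-term fetus, newborn lamb and adult sheep.

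**Figure D5:**
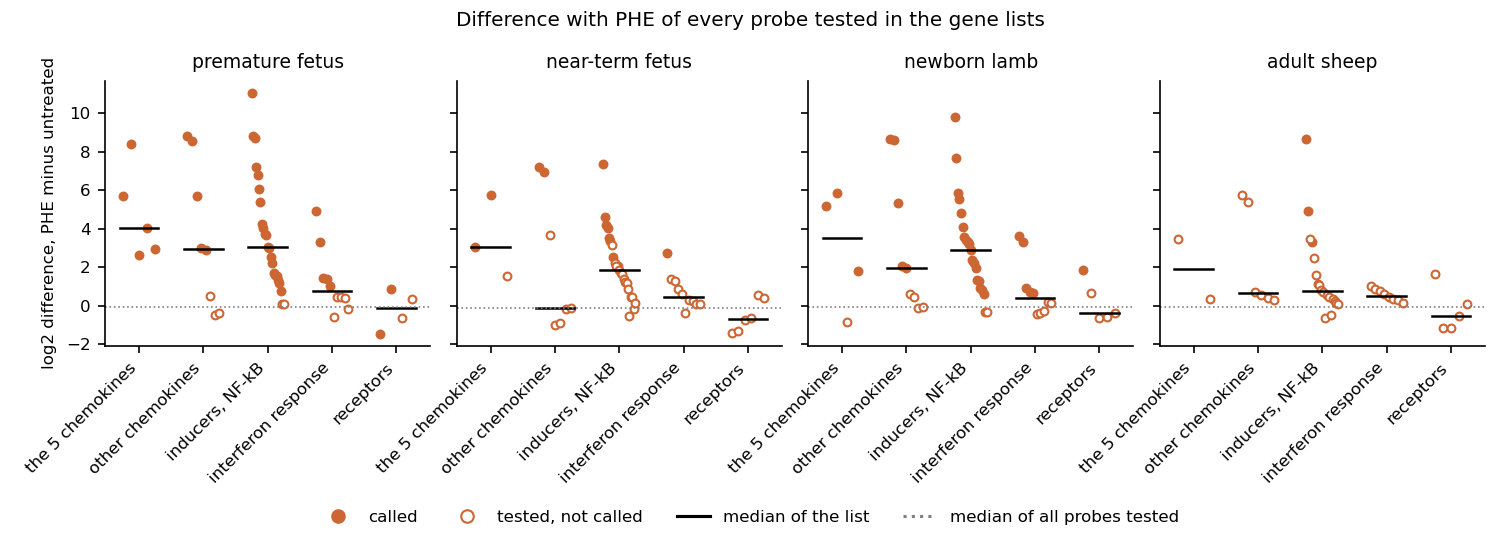
Log2 difference between PHE-treated and untreated arteries (vertical axis) of every probe tested among the 5 chemokines and 4 gene lists (horizontal axis) at each age. Filled points were called, short lines give the median of a list and the dotted line that of all probes tested; the inducer list had a median of 3.06 in the premature fetus and 0.76 in the adult sheep.

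Monocytes and macrophages both make and follow these chemokines, and 7 of 16 of their markers were named. CD14 read brightest of them in every group, through a probe named by matched means that averaged 0.655 over the 32 arrays. Its other 2 probes, named by accession, averaged -2.57 and -2.69. Signals of different probes do not rank amounts of RNA, and the sums below are carried most by the brightest probes. Summed over the 7 genes on the linear scale, where 1 is the 75th percentile of the array, the level was 3.49, 3.40, 3.47 and 3.89 on untreated and 6.14, 10.3, 6.0 and 8.4 on PHE-treated premature fetus arrays. Newborn lamb arrays gave 4.35, 3.03, 6.67 and 2.04 untreated and 5.21, 6.98, 8.6 and 6.7 with PHE. With PHE the sum stood clear of the untreated arrays in the premature fetus, although not every marker moved that way, as the values below show. The newborn groups overlapped, and within same-numbered arrays the newborn sum was higher with PHE in 4 of 4. Near-term fetus arrays gave 4.28, 6.85, 5.36 and 4.42 untreated and 4.26, 1.39, 3.62 and 3.66 with PHE, so that every PHE-treated array lay below every untreated array. Adult sheep arrays gave 0.674, 1.15, 1.33 and 0.704 untreated and 2.25, 0.796, 1.53 and 2.71 with PHE. Among near-term probes, FCER1G differed by -1.89 and -1.53, TYROBP by -1.44 and -1.33 and the brightest CD14 probe by -1.03, while the other 2 CD14 probes differed by 0.67 and 0.64 and CD68 by 0.99. Limma called 0 of these 8. Among adult PHE-treated arrays the sum was lowest on replicate 2.

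In the premature fetus 5 of 9 probes of these markers were called higher, of CD83 (5.37), CD14 (1.10) and CD68 (0.92), and 1 was called lower, of TYROBP (-0.69). In the newborn lamb 4 of 9 were called higher, of CD83 (at least 22.8-fold), CD68 (1.45) and CD14 (1.19), and in the near-term fetus 1 of 10, of CD83 (3.32, or 6.74-fold with dim values replaced). FCER1G differed by -0.57 and -0.48 on its 2 probes in the premature fetus and by -0.23 and -0.24 in the newborn lamb, and TYROBP by -0.22 and -0.21 in the newborn lamb, none of them called. CD83 is an activation marker of these cells, and the part of monocytes in the differences was not tested. ITGAM was well above background on at most 4 of 32 arrays. Of 18 lymphocyte markers 5 were named, and CD3D, CD4 and CD5 were well above background on at most 9 of 32 arrays. CD3G read brightest of them at every age and was called higher with PHE in the near-term fetus (1.61, limma adjusted p = 0.0377). It was named only by matched means and was well above background on 32 of 32 arrays. CD3E, named by accession and well above background on 26 of 32 arrays on its brighter probe, differed by -1.34 near term and by -0.50 in the premature fetus and was not called. The neutrophil protein S100A9 was called higher in the premature fetus (3.28) and newborn lamb (5.14, or 18.4-fold with dim values replaced), and LCP1 in the premature fetus (1.91).

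Of the vessel wall markers, CNN1 of smooth muscle and DCN of fibroblasts were well above background on 32 of 32 arrays, CALD1 of smooth muscle on 21, and TIE1 and SELE of endothelium on 17 and at most 6. Of 9 smooth muscle markers only these 2 were named, and in limma's fits neither was called with PHE at any age. Only 1 of their probes was tested in the near-term fetus. ICAM1, an adhesion molecule that endothelium displays to leukocytes, was called higher with PHE at every age (3.95, 3.98, 3.56 and 4.61 in the premature fetus, near-term fetus, newborn lamb and adult sheep). Its probe was well above background on 30 of 32 arrays, and dim values were not replaced in these differences. ENG (0.64) was called higher in the premature fetus and TIE1 (2.34, or 2.03-fold with dim values replaced) in the near-term fetus. COL1A2 and COL1A1 of fibroblasts were higher in the premature fetus (2.20 and 1.46) and near-term fetus (4.22 and 4.22, with a second COL1A2 probe at 1.31 and not called), and COL1A2 (0.80) and DCN (0.77) in the newborn lamb. DCN read brightest of the fibroblast markers in 7 of 8 groups. Its 2 probes differed by -0.46 and -0.37 in the premature fetus and by -0.32 and -0.79 in the near-term fetus. These differences were below the fold threshold or not past the adjusted p. The haemoglobin gene HBA1 of blood was lower with PHE in the premature fetus (3.89-fold), near-term fetus (5.20-fold) and newborn lamb (2.01-fold). HBB, the other blood gene named, was not called on either of its 2 probes. They differed by -1.48 and -0.71 in the premature fetus, -1.35 and -1.10 in the near-term fetus and -0.26 and 0.09 in the newborn lamb. Of the brain markers GFAP (at least 2.24-fold on its dimmer probe, -0.72 on the brighter) and MBP (-1.08) were lower in the premature fetus. Of 4 fat markers 2 were named, with no probe tested in the premature fetus and 1 probe tested at each other age, and none was called. The part of these shifts in the chemokine differences was not tested. Among the called markers, CD83, CD68, CD3G, S100A9, LCP1, ENG, TIE1, COL1A1, COL1A2, HBA1, MBP, the brightest CD14 probe and a GFAP probe had been named through the list of genes altered with PHE. Their calls are thus not independent of that choice.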

How the data were processed

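The 32 one-colour arrays were, per the file headers, read by the authors with Feature Extraction 9.5.3.1. The deposited values are intensity with the background taken off, not scaled between arrays. A deposited matrix held the same intensities (largest difference 0). Of 15744 spots, 536 were controls and were dropped, spots marked as outliers (1 to 53 on an array) were treated as missing, and spots of a probe were averaged. Intensities were divided by the 75th percentile of the array over probes other than controls and put on the log2 scale. R 4.3.3 with limma 3.58.1 (lmFit and eBayes) was fitted to the arrays compared, without a replicate block, with Benjamini-Hochberg adjustment over all probes tested, and the fits were tested on simulated data. Tables and plots used Python 3.11.15 with numpy 2.4.6, pandas 2.3.3 and matplotlib 3.10.9.

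Symbols came from accessions for 520 probes, from matched group means for 1873 (within 0.1%) and from names in the files for 653, and 11962 probes carry none here. Matching used the percentile over all probe names and a floor of 0.01, and gave a single probe to 1141 of 1269 premature fetus entries, 1101 of 1106 near-term entries, 1012 of 1016 newborn entries and 437 of 438 adult entries. At near-term it worked without PHE replicate 1, and for 5 entries with it. Matched names equalled the accession's name for 56 of 63 probes that had both, and the file's own name for 91 of 156.

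A gene with no array of a group well above background has only a bound on its fold, for which a dim value is replaced by the smallest signal of its array that is well above background. The genes named were the 5 chemokines, up to 4 called genes with the largest difference in each list and those called the other way. Also named were the marker with the brightest probe and the 5 probes most like each chemokine. The members and lists were chosen with earlier results of these data known. Markers near background are named beside them.

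The replicate numbers pair the arrays in the premature fetus and newborn lamb, where deviations from group means of same-numbered untreated and PHE-treated arrays correlated in 4 of 4 pairs (r = 0.398 to 0.511 and r = 0.484 to 0.558). They did so in 1 of 4 pairs in the near-term fetus (-0.116 to 0.508) and in 0 of 4 in the adult sheep. Nothing states the animal behind a number, and p-values measure the spread between these arrays. Alternatives were a fit to all 32 arrays, unadjusted p, no fold threshold, the methods' t-test, quantile normalization, normexp with an offset of 50, the median in place of the 75th percentile, a floor of 0.01, other filters on dim probes, a probe per gene, replicate number or slide as a block, array weights and each array left out in turn. After the data were seen, leaving out near-term untreated replicate 4 and PHE replicate 1 together and a slide block for untreated arteries were added. Sequences of the probes were not used here.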

Additional observations from a re-analysis of the deposited data

Results flagged for a closer look

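In 4 of 56 groups of 4 arrays, a single array stood far from the other 3, and chance alone flags about 1 in 20 such groups, or 2.8 of 56. CXCL10 read -4.96 on untreated adult sheep replicate 3, above the other 3 arrays of its group, the 1 such case among 40 groups of the 5 chemokines. The same array had the highest 75th percentile intensity of its group, at 1729.9. Near-term fetus PHE replicate 4 had 95.7% of probes well above background and adult sheep PHE replicate 1 had 69.8%, each the highest of its group.

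The PHE effect differed between ages by limma's test of the difference for 5 of the pairs of gene and ages tested. CXCL10 differed by -4.86 between newborn lamb and premature fetus (limma adjusted p = 0.00662) and by -3.76 between adult sheep and premature fetus (limma adjusted p = 0.0212). The latter entered only through premature fetus PHE-treated arrays, with 1 untreated and 0 PHE-treated adult arrays well above background. CCL2 differed by -2.62 between near-term and premature fetus (limma adjusted p = 0.0251) and by 2.12 between newborn lamb and near-term fetus (limma adjusted p = 0.0424). CXCL16 differed by -2.59 between adult sheep and premature fetus (limma adjusted p = 0.00142).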

How the results depend on the processing

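Of the log2 differences of the 5 chemokines with PHE, 255 kept their direction and their side of the threshold over the alternatives other than unadjusted p, no fold threshold and the t-test, 6 came to pass it, 5 ceased to pass it, and CXCL16 in the near-term fetus turned to -0.17 with normexp background correction. The number of probes called with PHE in the premature fetus (3079) was 1857 with a fit to all 32 arrays, 4959 with no fold threshold and 1156 with normexp. The near-term number (331) was 3632 with the fit to all 32 arrays, 2568 with unadjusted p, 1936 and 18 with the methods' t-test before and after adjustment, 214 with normexp, 94 with no filter, 13 with slide as a block, 4107 with array weights and 1581 with near-term untreated replicate 4 and PHE replicate 1 left out together, the last chosen after seeing the data. The newborn number (1948) was 1170 with the fit to all 32 arrays, 1276 with the adjusted t-test and 1244 with normexp, and the adult number (193) was 401, 966 with unadjusted p, 655 and 9 with the t-test and 440 with array weights. With an array left out the numbers lay between 2883 and 3230, 91 and 1483, 1664 and 2127, and 105 and 476. Of the chemokines, 2 were called in the premature fetus where all arrays had to be well above background, and 0 in the near-term fetus with the adjusted t-test, normexp or slide as a block and 1 with that filter. In the adult sheep 1 was called with the fit to all 32 arrays or unadjusted p. With an array left out 5 to 5, 2 to 3, 3 to 4 and 0 to 2 were called. For the PHE effect of newborn lamb minus premature fetus (1 called), 0 were called with the fit to all 32 arrays, normexp or the stricter filter, 4 with unadjusted p, 3 with the replicate block and 2 with array weights. For near-term minus premature fetus (1), 5 were called with unadjusted p, 3 with quantile normalization, median scaling, slide as a block or array weights, 2 with the replicate block or those 2 near-term arrays left out, and 0 with no filter. For newborn lamb minus near-term fetus (1), 0 were called with the fit to all 32 arrays, quantile normalization or no filter, and 2 with normexp. For adult sheep minus premature fetus (2), 1 was called with the fit to all 32 arrays, the stricter filter or slide as a block and 0 with normexp. For adult sheep minus near-term fetus and minus newborn lamb (0 and 0 by limma), 1 was called with unadjusted p, and for the latter 1 with quantile normalization. With an array left out these counts lay between 1 and 2, 0 and 3, 0 and 1, 1 and 3, 0 and 0, and 0 and 0. Of untreated arteries, newborn lamb minus premature fetus (1) had 0 with the fit to all 32 arrays, normexp or the stricter filter and 2 with unadjusted p or array weights (1 to 2 with an array left out). Adult sheep minus near-term fetus (2) had 1 with normexp or quantile normalization, 5 with no filter and 0 with the stricter filter (2 to 4). The cause of these shifts was not tested, except that a stricter filter tests fewer genes. With the replicate block 3229, 288, 2259 and 154 probes and 5, 2, 3 and 0 chemokines were called with PHE in the premature fetus, near-term fetus, newborn lamb and adult sheep, and it changed no chemokine call beyond those given. Slide could not be a block in the premature fetus, the newborn lamb or between them, where each age had a single slide. Median scaling moved the share of calls that were higher from 51.1% to 37.5% in the premature fetus and from 43.6% to 69.3% for untreated adult sheep minus near-term fetus (60.1% with quantile normalization, 26.3% with normexp). In the newborn lamb normexp moved it from 52.7% to 68.2%. For the PHE effect it moved from 17.4% to 36.7% with median scaling (newborn lamb minus premature fetus), from 56.9% to 42.4% with normexp and 46.8% with median scaling (near-term minus premature fetus), and from 24.3% to 83.5% and 35.6% (newborn lamb minus near-term fetus). For adult sheep minus newborn lamb it moved from 42.1% to 52.4% and 31.8%. Normexp moved the median of all probes from -0.08 to -0.21 in the premature fetus and from -0.08 to -0.42 in the near-term fetus.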
